A study of Mus musculus with 12 samples.

Results

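The T cell receptor complex and its coreceptors were followed in mouse liver through 10 genes: the CD3 chains Cd3d, Cd3e and Cd3g, the coreceptors Cd4, Cd8a and Cd8b1, the kinase Lck, the costimulatory receptors Cd2 and Cd28, and Foxp3, the transcription factor of regulatory T cells. The genes were chosen by name, with earlier results of these data known. Each was read from the probe set that the platform annotation pairs with its symbol alone. A probe set of this kind was found for 9 of the 10 genes, out of 19938 genes tested in all. Lck had none and was not analysed here. The samples were livers of 12 C57Bl/6J mice, an inbred strain. At 10 weeks of age 6 mice had received a recombinant adenovirus by intravenous injection that expressed a hairpin targeting Grb14 (sh Grb14), and the other 6 a vector with a scrambled hairpin (sh scramble). Livers were taken on day 7 from fed animals, and each gave 1 array. Every mouse therefore carried adenovirus, and uninfected livers were not analysed here. The mice were separate animals, so p-values set the group difference against the spread between mice. Each group received its own vector, so other differences between the vectors cannot be told apart from the lowering of Grb14. Grb14 is an adapter that inhibits the insulin receptor, and its own log2 level was 8.24 ± 0.13 in sh Grb14 livers and 10.15 ± 0.063 in sh scramble livers (SD, n = 6 each).

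The T cell receptor recognises peptides held by major histocompatibility complex (MHC) molecules but has no signalling tail of its own, so it signals through the CD3 chains and the zeta chain. CD8 binds MHC class I molecules, which nearly all cells carry, and CD4 binds class II molecules of antigen-presenting cells; both coreceptors bring Lck to the receptor. The liver normally holds a resident population of T cells in its sinusoids, and CD8 T cells enter it during viral infection. Some genes of the set are not exclusive to T cells: in the mouse Cd8a and Cd4 are also transcribed in subsets of dendritic cells, and Cd2 in NK and B cells, whereas the CD3 chains and Cd8b1 are largely T cell genes.

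Of the 9 genes, 7 rose, 1 fell and 1 did not pass the test in sh Grb14 livers. The genes that rose were the 3 CD3 chains, both CD8 chains, Cd2 and Cd28, by 0.97 to 2.95 on the log2 scale. Cd4 fell, and Foxp3 did not pass. The test was limma's, with p adjusted over all 19938 genes and a threshold of 0.05. Expression differed widely between these groups: 25.8% of all genes passed as higher and 39.5% as lower, 65.3% in either direction, so a call alone says little about a gene. In 7 of the 9 genes every sh Grb14 liver lay above every sh scramble liver, as in 20.3% of all genes, and in Cd4 every one lay below, as in 20.8%; either held for 8 of the 9 and for 41.2% of all genes. The size was less common, since 6 of the 9 genes passed with at least a 2-fold rise, against 6.37% of all genes. The median change was 1.79 over the 9 genes and −0.10 over all genes. The set was chosen with earlier results of these data known, so these shares and medians describe it and are no independent support. In whole liver RNA, more cells of a type and more RNA per cell cannot be told apart.

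The CD3 chains rose in every sh Grb14 liver. Cd3g, the gamma chain, had log2 levels of 9.71, 9.70, 9.94, 10, 9.96 and 9.91 in the 6 sh Grb14 livers, against 6.89, 6.73, 6.92, 7.20, 6.90 and 6.84 in the sh scramble livers. The groups lay 2.50 apart at their closest, several times the spread within either group. The rise was 2.95 (SE 0.076), 7.75-fold (limma adjusted p = 1.33e-14), and 42 of all genes rose by more. Cd3e, the epsilon chain that pairs with both other CD3 chains, stood at 9.59, 9.79, 10.25, 10.29, 10.13 and 9.98 in sh Grb14 livers, against 7.99, 8.37, 7.99, 8.24, 7.93 and 8.33 in sh scramble livers. Its groups did not overlap either, although sh Grb14 livers 1 and 2 were lower than the other 4. Cd3e rose by 1.86 (SE 0.11), 3.63-fold (adjusted p = 2.99e-10).

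The delta chain, Cd3d, had log2 levels of 6.80, 6.63, 7.06, 6.95, 6.81 and 7.00 in sh Grb14 livers, against 5.89, 6.03, 5.96, 5.73, 5.82 and 5.98 in sh scramble livers. The sh scramble values lie close to the lower quartiles of those arrays (5.69 to 5.83), where no detection call was made and a change can be understated. All 6 sh Grb14 livers were above all 6 sh scramble livers, and the rise was 0.97 (SE 0.077), 1.97-fold (adjusted p = 8.29e-09). The zeta chain gene Cd247 rose by 0.43 (SE 0.058), with means of 7.33 in sh Grb14 livers and 6.89 in sh scramble livers.

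The 3 CD3 genes lie next to each other on mouse chromosome 9, and their promoters are shown because these neighbours rose by 0.97 to 2.95, differences between them that were not tested. Cd3g is read from the minus strand and Cd3d from the plus strand, away from each other, with 1355 bases between their start sites. Cd3e is read from the minus strand and its start site is 27825 bases from that of Cd3d. RefSeq windows of GRCm38.p6, from 250 bases before the start site to 50 after it, are given 5′ to 3′ on the strand of the gene: Cd3g at chr9:44980382-44980681 (minus), Cd3d at chr9:44981536-44981835 (plus), Cd3e at chr9:45009562-45009861 (minus) and Cd8a at chr6:71373177-71373476 (plus). Windows were found for 6 of the 10 genes. Capitals mark exact matches on either strand to any of 5 short words, 1 for each of 5 factor families active in T cells, none of which overlapped another in these windows.
Cd3g: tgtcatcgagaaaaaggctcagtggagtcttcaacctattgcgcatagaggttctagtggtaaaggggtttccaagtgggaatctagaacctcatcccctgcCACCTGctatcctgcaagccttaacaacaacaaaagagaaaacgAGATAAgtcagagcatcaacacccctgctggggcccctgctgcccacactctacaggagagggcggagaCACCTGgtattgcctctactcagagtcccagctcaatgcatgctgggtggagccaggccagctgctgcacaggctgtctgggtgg
Cd3d: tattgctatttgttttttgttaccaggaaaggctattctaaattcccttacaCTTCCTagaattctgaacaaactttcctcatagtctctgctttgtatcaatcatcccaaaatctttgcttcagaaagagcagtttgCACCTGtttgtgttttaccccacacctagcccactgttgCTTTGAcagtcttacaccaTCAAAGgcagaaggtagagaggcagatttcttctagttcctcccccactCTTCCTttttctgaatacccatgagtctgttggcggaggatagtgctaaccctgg
Cd3e: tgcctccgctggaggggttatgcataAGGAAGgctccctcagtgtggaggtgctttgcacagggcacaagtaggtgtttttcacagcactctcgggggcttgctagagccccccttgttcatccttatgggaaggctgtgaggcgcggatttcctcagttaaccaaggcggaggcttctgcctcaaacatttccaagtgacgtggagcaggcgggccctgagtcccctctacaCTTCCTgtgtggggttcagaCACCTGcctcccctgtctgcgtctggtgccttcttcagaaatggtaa
Cd8a: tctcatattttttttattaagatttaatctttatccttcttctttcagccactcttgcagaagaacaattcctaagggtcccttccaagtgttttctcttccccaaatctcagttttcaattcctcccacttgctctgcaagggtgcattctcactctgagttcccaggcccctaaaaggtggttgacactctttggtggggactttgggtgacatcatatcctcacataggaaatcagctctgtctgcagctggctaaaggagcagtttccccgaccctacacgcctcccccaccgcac
The E-box word, CAGGTG, stood in the windows of all 3 CD3 genes, 2 times in that of Cd3g, and in 20.3% of 32544 mouse promoter windows. The ETS word, AGGAAG, stood 2 times each in the windows of Cd3d and Cd3e and in 35.1% of all windows. Cd3d also held CTTTGA, the TCF/LEF word, 2 times (16% of all windows). Each share of all windows given here counts windows with the word at least 1 time, and the share with 2 was not counted. Cd3g held the GATA word, AGATAA, 1 time (11.2% of all windows). The RUNX word, TGTGGT (16.7% of all windows), was in none of the 4 windows, and the Cd8a window held none of the 5 words, which says only that these letters are not there.

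**Figure D1:**
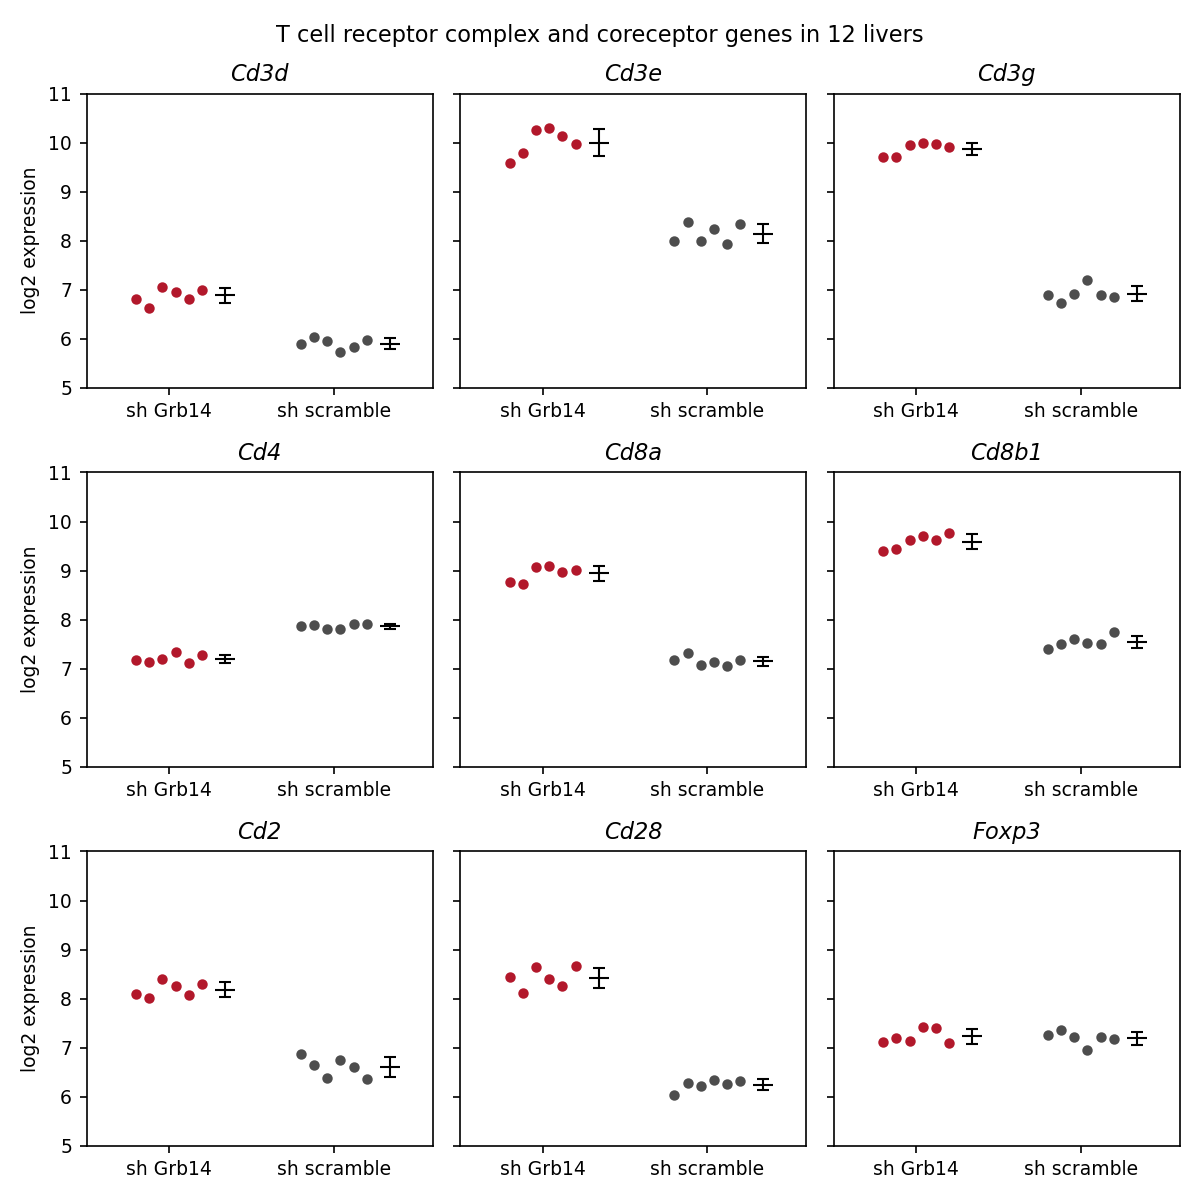
Log2 expression of the 9 genes in each of 12 livers, sh Grb14 at the left (red) and sh scramble at the right (grey) of each panel, with the group mean and SD (black, n = 6 each). The 3 CD3 genes, both CD8 genes, Cd2 and Cd28 lie higher in all 6 sh Grb14 livers, Cd4 lies lower in all 6, and Foxp3 overlaps.

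The coreceptors moved in opposite directions. Cd8a, the chain that CD8 dimers share, had log2 levels of 8.76, 8.73, 9.07, 9.09, 8.98 and 9.02 in sh Grb14 livers, against 7.18, 7.31, 7.08, 7.14, 7.05 and 7.17 in sh scramble livers. It rose by 1.79 (SE 0.071), 3.45-fold (adjusted p = 1.52e-12). Every sh Grb14 liver was at least 1.42 above every sh scramble liver. Cd8b1, the beta chain of the CD8 heterodimer of conventional CD8 T cells, had levels of 9.39, 9.43, 9.63, 9.70, 9.63 and 9.77 in sh Grb14 livers, against 7.40, 7.50, 7.61, 7.52, 7.50 and 7.74 in sh scramble livers. It rose by 2.05 (SE 0.072), 4.14-fold (adjusted p = 3.96e-13), again with no overlap.

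Cd4, the coreceptor of helper and regulatory T cells, was lower in all 6 sh Grb14 livers. Its log2 levels there were 7.17, 7.14, 7.20, 7.33, 7.11 and 7.27, against 7.87, 7.88, 7.80, 7.80, 7.91 and 7.91 in sh scramble livers. The values were tight in both groups (SD 0.081 in sh Grb14 and 0.049 in sh scramble livers), and the groups lay 0.47 apart. Cd4 fell by 0.66 (SE 0.053), 1.58-fold (adjusted p = 1.03e-08). It was the only 1 of the 9 genes that fell, and the sh scramble levels were well above the lower quartiles of those arrays. In sh Grb14 livers Cd4 lay near the array medians (7.06 to 7.17), and detection was not called.

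Cd2 and Cd28, which lower the threshold for T cell activation, rose as well. Cd28, the receptor for CD80 and CD86, had levels of 8.44, 8.12, 8.64, 8.39, 8.26 and 8.67 in sh Grb14 livers, against 6.04, 6.28, 6.21, 6.34, 6.26 and 6.31 in sh scramble livers. It rose by 2.18 (SE 0.089), 4.54-fold (adjusted p = 2.04e-12), with 1.78 between the groups. Cd2, an adhesion receptor that binds CD48 in the mouse, had levels of 8.10, 8.01, 8.39, 8.26, 8.07 and 8.29 in sh Grb14 livers, against 6.86, 6.64, 6.37, 6.74, 6.60 and 6.35 in sh scramble livers. All 6 sh Grb14 livers were higher, and Cd2 rose by 1.59 (SE 0.092), 3.01-fold (adjusted p = 1.43e-10). Their ligands rose with them: Cd48 by 2.13 (SE 0.076), Cd86 by 1.88 (SE 0.067) and Cd80 by 1.35 (SE 0.086), with no overlap between groups for any of the 3. Cd80 had 2 probe sets, of which the one with the higher mean was used. Its rise ran from 0.89 to 1.41 over other processing choices and with single mice left out.

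Foxp3 levels overlapped between the groups. They were 7.12, 7.20, 7.14, 7.43, 7.39 and 7.10 in sh Grb14 livers, against 7.25, 7.35, 7.21, 6.96, 7.22 and 7.17 in sh scramble livers. The difference was 0.03 (SE 0.077, limma adjusted p = 0.701), with a 95% interval of −0.13 to 0.20. For the signal of this probe set, a change of the size seen in Cd4 or in the CD3 genes lies outside the interval. Its levels were close to the array medians (7.06 to 7.17) and detection was not called. The values therefore do not show that Foxp3 RNA was unchanged. Other genes used by regulatory T cells did pass: of 8 measured, 7 rose and 1 fell, and the median change was 0.44. Nt5e, the ecto-enzyme CD73, rose by 1.99 (SE 0.099) and Lrrc32, a surface anchor of latent TGF-beta, by 0.61 (SE 0.10), both also made by other liver cells. Ctla4 and Il2ra, an inhibitory receptor and the alpha chain of the interleukin 2 receptor, rose by 0.53 (SE 0.066) and 0.49 (SE 0.059). Ikzf4, a zinc finger factor of the Ikaros family, fell by 0.79 (SE 0.11). With arrays centred on their medians 5 of the 8 passed as higher, as Ikzf2 and Tnfrsf4 no longer passed.

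**Figure D2:**
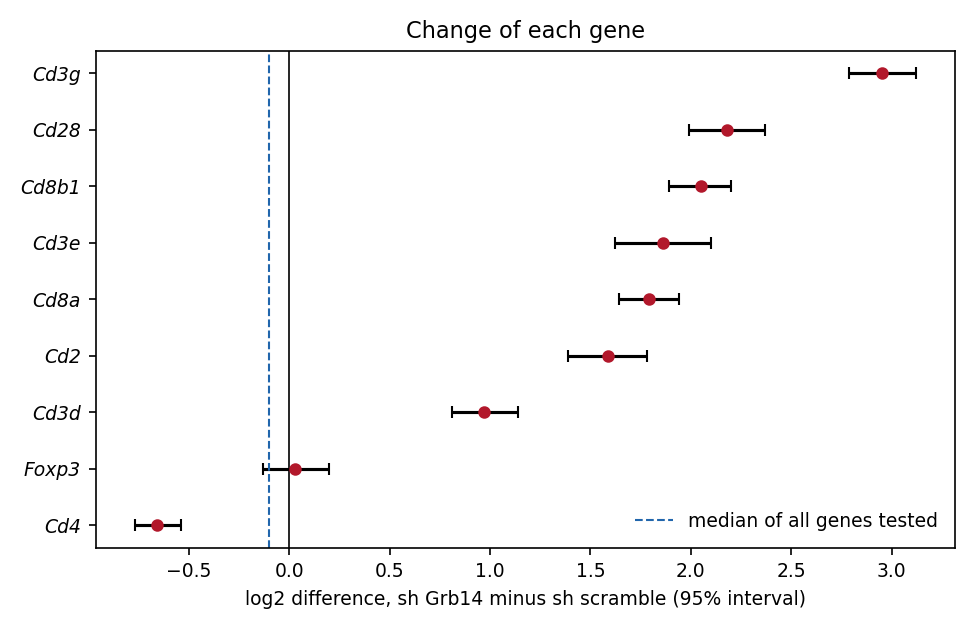
Log2 difference of each gene, sh Grb14 minus sh scramble, with its 95% interval (n = 6 each), in order of size, beside the median of all genes tested (blue dashed line at −0.10). Cd3g stands above the rest at 2.95, Foxp3 spans 0, and Cd4 lies below 0 at −0.66.

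In order of their changes the genes were Cd3g, Cd28, Cd8b1, Cd3e, Cd8a, Cd2, Cd3d, Foxp3 and Cd4. The intervals of neighbours from Cd28 to Cd2 overlapped (Cd28 1.99 to 2.37, Cd8b1 1.89 to 2.20, Cd3e 1.62 to 2.10, Cd8a 1.64 to 1.94, Cd2 1.39 to 1.78). The interval of Cd3g (2.79 to 3.12) lay above that of Cd28, and the interval of Cd3d (0.81 to 1.14) below that of Cd2. Probe sets can compress changes to different degrees, and that was not tested. With 1 probe set for each of the 9 genes, no second reading of a gene was available.

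Unequal changes were tested within arrays for 5 pairs of genes, with an exact permutation test (two-sided) that went through the 924 ways of dealing the 12 livers into groups of 6. The smallest p this allows is 0.00216, and p was adjusted over the 5 pairs. The log2 difference Cd8a minus Cd4 was 1.58 to 1.87 in sh Grb14 livers and −0.85 to −0.57 in sh scramble livers. It was 2.44 higher in sh Grb14 livers (adjusted exact p = 0.00541), with all 6 livers of the group above all 6 sh scramble livers. Foxp3 minus Cd4 was −0.18 to 0.28 in sh Grb14 livers and −0.84 to −0.53 in sh scramble livers, a shift of 0.69 (adjusted exact p = 0.00541). These 2 pairs share Cd4, whose fall enters both.

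The 2 CD8 chains also rose by unequal amounts. Cd8b1 minus Cd8a averaged 0.65 ± 0.07 in sh Grb14 livers and 0.39 ± 0.16 in sh scramble livers (SD, n = 6 each), a shift of 0.26 (adjusted exact p = 0.00722), with ranges of 0.56 to 0.76 in sh Grb14 and 0.19 to 0.58 in sh scramble livers that overlapped. Cd28 minus Cd3e shifted by 0.32 and Cd2 minus Cd3e by −0.27, and neither passed (adjusted exact p = 0.0541 and 0.0974). Both of these depended on single livers: without sh scramble 5, sh Grb14 4 or sh Grb14 5 the Cd28 shift was 0.37, 0.39 and 0.38 and passed (adjusted exact p = 0.0325, 0.0216 and 0.0271). Without sh scramble 6 the Cd2 shift was −0.36 and passed (adjusted exact p = 0.0433).

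**Figure D3:**
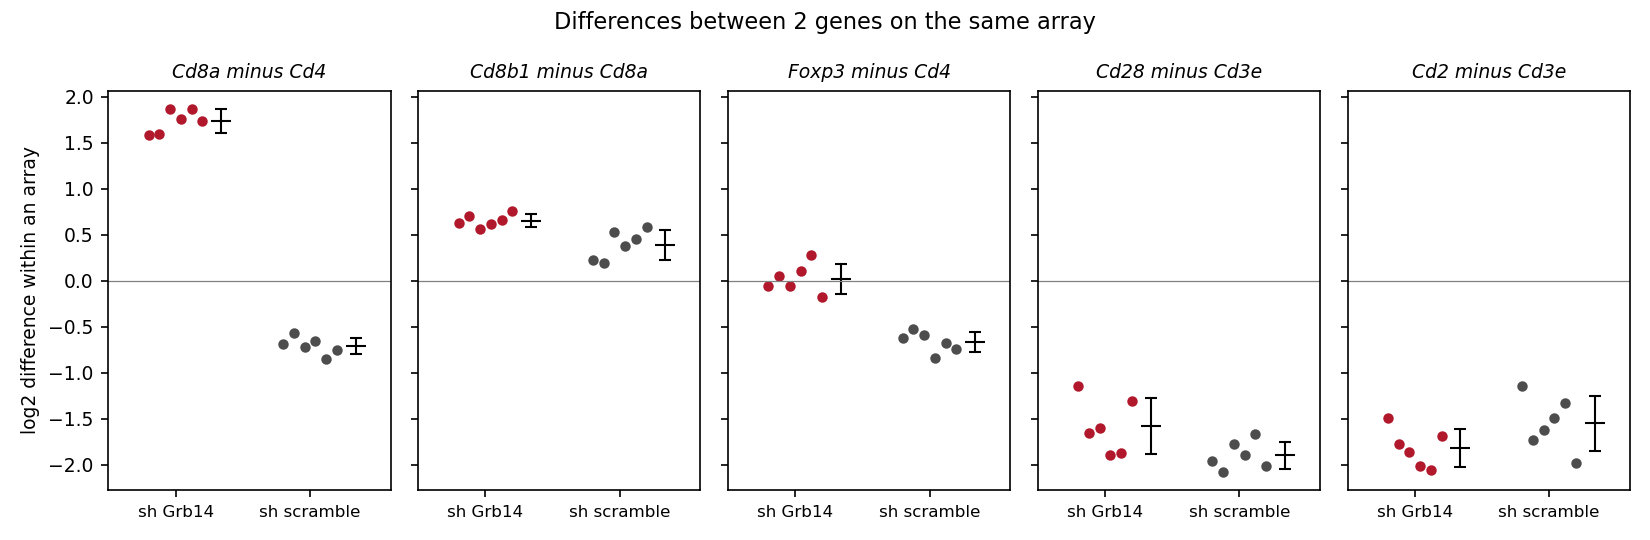
Log2 difference between 2 genes on the same array for 5 pairs, in 6 sh Grb14 livers (red, left) and 6 sh scramble livers (grey, right) of each panel, with the mean and SD in black. Cd8a minus Cd4 and Foxp3 minus Cd4 separate the groups, and the other 3 pairs overlap.

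The sh Grb14 livers were not alike. Liver 2 of that group was among the 2 lowest of the group for 8 of the 9 genes and liver 1 for 6, while liver 4 was the highest for 5 genes and among the 2 highest for 6. The deviations were small beside the group differences: in Cd3e they ran from −0.41 in liver 1 to 0.28 in liver 4, and in Cd8a from −0.21 in liver 2 to 0.15 in liver 4. In sh scramble livers no liver was among the 2 lowest for more than 4 genes. At the upper end, sh scramble liver 6 was among the 2 highest for 5 genes and sh scramble liver 2 was the highest for 4. Cd3g and Cd2 were high in different sh scramble livers, number 4 for Cd3g and number 1 for Cd2.

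As a description, the mean of the CD3 genes was followed over the 12 arrays after each group was centred on its own mean. Cd8a tracked it with Pearson's r = 0.91, and of all 19938 genes only Cd3e (0.93), which is part of that mean, was closer. Cd3d and Cd3g, also part of the mean, had r = 0.66 and 0.61, so the mean followed Cd3e most. Cd8b1 had r = 0.74, Cd28 0.53, Cd4 0.38, Cd2 0.38 and Foxp3 0.19. The 5 closest genes outside the set were Septin1 (0.90), Cnn1, Hemgn, Catsper1 and Mfap4 (0.89 each). The points share the array and its normalisation, and the closest genes are picked from all genes, so high values arise for some genes in any case. Of those 5, Septin1 rose by 1.26 (SE 0.093) between the groups, while Catsper1, with means of 5.49 in sh Grb14 livers and 5.69 in sh scramble livers, at or below the lower quartiles of the arrays, fell by 0.20 (SE 0.057), a call lost with quantile normalisation (−0.10, adjusted p = 0.0732).

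**Figure D4:**
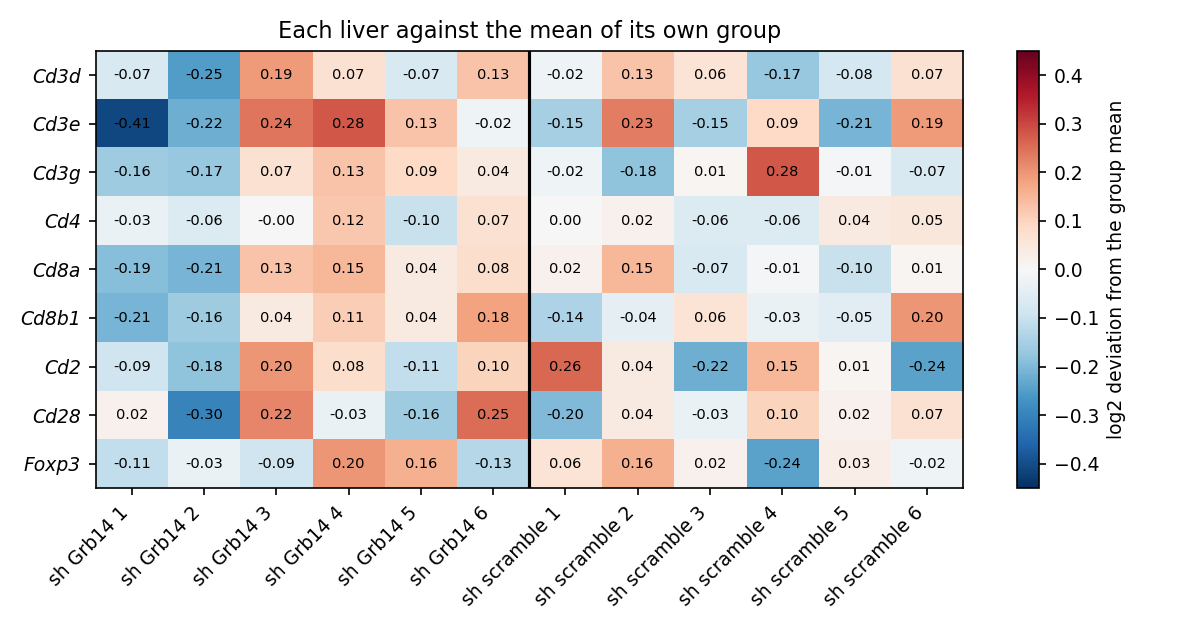
Deviation of each liver from the mean of its own group, on the log2 scale, for the 9 genes, with sh Grb14 livers left of the line and sh scramble livers right of it. Livers 1 and 2 of the sh Grb14 group are below their group mean for 8 and 9 of the genes.

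Genes that act just downstream of the receptor mostly rose. Of 23 measured genes of proximal signalling 20 rose and 2 fell, and the median change was 1.14. Ptpn22, a phosphatase that restrains the receptor, rose by 2.55 (SE 0.058), Ptprc, the leukocyte phosphatase CD45, by 2.08 (SE 0.072) and Vav1, an exchange factor, by 1.99 (SE 0.068). Several of these are expressed in most leukocytes. Among more T cell-restricted genes, Themis, which tunes receptor signals in thymocytes, rose by 1.96 (SE 0.092), the adapter Lat by 1.46 (SE 0.092) and the kinase Zap70 by 0.46 (SE 0.074). Plcg1, a phospholipase that other liver cells also make, fell by 0.50 (SE 0.044), and Trat1, an adapter whose level of 4.28 in sh Grb14 livers and 4.41 in sh scramble livers is near the bottom of the scale, fell by 0.13 (SE 0.051). The Trat1 call was lost with quantile normalisation (−0.05, adjusted p = 0.402) and without sh Grb14 1, 2 or 3 or sh scramble 4 or 5 (−0.12 to −0.10, adjusted p 0.0742 to 0.0867). Csk, the kinase that inhibits Lck, had a difference of 0.02 (SE 0.049), which turned to −0.12 and passed with centred arrays.

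Other surface receptors of T cells and T cell transcription factors mostly rose as well. Of 11 measured surface genes 9 rose, 1 fell and 1 did not pass (median 1.09). Il2rb, a chain shared by the interleukin 2 and 15 receptors, rose by 2.70 (SE 0.073), Cd96 by 2.01 (SE 0.13) and Cd27, a costimulatory receptor, by 1.88 (SE 0.070). S1pr1, which guides lymphocyte exit and is abundant in endothelium, fell by 1.26 (SE 0.062), and Ccr7, a homing receptor of naive T cells, had a difference of 0.20 (SE 0.089, adjusted p = 0.0533). It passed without sh scramble 1 or 6 or sh Grb14 1 or 3 (adjusted p = 0.0427, 0.0487, 0.0279 and 0.0370). Of 12 measured transcription factors 10 rose, 1 fell and 1 did not pass (median 0.63). Ikzf1 and Ikzf3, factors of the Ikaros family, rose by 1.93 (SE 0.074) and 1.88 (SE 0.081), and Tbx21, the factor T-bet of type 1 and cytotoxic responses, by 1.21 (SE 0.090). Runx3, which silences Cd4 in the CD8 lineage, rose by 1.13 (SE 0.078). Zbtb7b, which sets the CD4 lineage and is also made outside T cells, fell by 0.25 (SE 0.045). Any part of Runx3 or Zbtb7b in the change of Cd4 was not tested. Gata3, of type 2 responses, rose by 0.37 (SE 0.062), and Bcl11b, a T cell identity factor, had a difference of 0.14 (SE 0.076).

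Genes listed for other blood cells moved in the same livers. The NK and cytotoxic list is not exclusive to NK cells, and the part of T cells in its changes was not tested. Of 10 NK and cytotoxic genes 7 rose, led by Gzmb, a granule protease, by 3.46 (SE 0.087), Nkg7 by 3.24 (SE 0.088) and the receptor Klrk1 by 1.92 (SE 0.095). The mean log2 level over that list was 7.51 to 7.68 in sh Grb14 livers and 6.11 to 6.20 in sh scramble livers. The 3 genes that did not pass, Ncr1, Klrb1c and Klre1, are markers of NK cells, with differences of 0.16, 0.05 and −0.05. Klrb1c averaged 5.38 in sh Grb14 livers and 5.33 in sh scramble livers, and Klre1 3.91 in sh Grb14 livers and 3.97 in sh scramble livers. Both lie below the lower quartiles of the arrays, where a change may not be detectable, so these values do not show that the genes were unchanged. With quantile normalisation Ncr1 and Klrb1c also passed as higher, at 0.25 and 0.16, and Ncr1 did so without sh scramble 2 or 6 (0.21 and 0.20). With centred arrays Klre1 passed as lower, at −0.20. NK cells carry Cd2, and the part of NK cells in its change was not tested.

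Of 8 dendritic cell genes 6 rose and 2 did not pass, with the list mean at 7.80 to 7.99 in sh Grb14 livers and 6.82 to 7.00 in sh scramble livers. Itgax, the integrin CD11c, rose by 2.41 (SE 0.080), and Clec9a and Xcr1, receptors of the dendritic subset that can carry Cd8a, by 2.23 (SE 0.10) and 1.85 (SE 0.095). The 2 that did not pass were Zbtb46, at −0.12 (SE 0.064), and Cd209a, at −0.19 (SE 0.089). With centred arrays 5 of the 8 passed as higher and these 2 as lower (−0.27 and −0.33). With quantile normalisation 6 passed as higher and the same 2 as lower (−0.23 and −0.20). The part of dendritic cells in the changes of Cd8a and Cd4 was not tested. Of 8 monocyte and macrophage genes 6 rose, with the list mean at 9.86 to 10.08 in sh Grb14 livers and 8.67 to 8.99 in sh scramble livers. The chemokine receptor Ccr2, of recruited monocytes, rose by 2.02 (SE 0.13), Cd68 by 1.94 (SE 0.065) and Adgre1 by 1.64 (SE 0.080), while Clec4f and Timd4 of resident Kupffer cells had differences of −0.06 (SE 0.098) and −0.05 (SE 0.063), and Timd4 passed as lower with centred arrays (−0.20).

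All 6 neutrophil genes rose, by 1.13 to 2.36, with Cxcr2, a chemokine receptor, at 2.36 (SE 0.11), Retnlg at 1.77 (SE 0.11) and Csf3r, the growth factor receptor, at 1.74 (SE 0.11). B and plasma cell genes had the smallest median change of these blood cell lists, at 0.29: 4 of 7 rose, by at most 0.40, and 3 did not pass. Cd79b and Ms4a1, which B cells express at their surface, rose by 0.40 (SE 0.082) and 0.39 (SE 0.068), and Jchain, of antibody-secreting cells, by 0.39 (SE 0.11). With arrays centred on their medians 2 of the 7 passed as higher and 3 as lower, and Jchain no longer passed (0.24, adjusted p = 0.0508). The 3 genes that had not passed, Blk, Pax5 and Mzb1, passed as lower with centred arrays and also with quantile normalisation (−0.16, −0.17 and −0.18). Hepatocyte genes defined the tissue, with list means of 13.04 to 13.20 in sh Grb14 livers and 13.43 to 13.47 in sh scramble livers. Of 7 measured, 6 fell, led by the cytochrome Cyp2e1, by 0.94 (SE 0.041), the factor Hnf4a, by 0.37 (SE 0.060), and the plasma protein Ttr, by 0.29 (SE 0.039). Albumin had a difference of 0.04 (SE 0.025), with means of 13.95 in sh Grb14 livers and 13.92 in sh scramble livers. Such levels lie near the highest value on any array (14.24), where changes can be compressed, and that was not tested. With quantile normalisation 4 of the 7 fell and 1 rose.

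**Figure D5:**
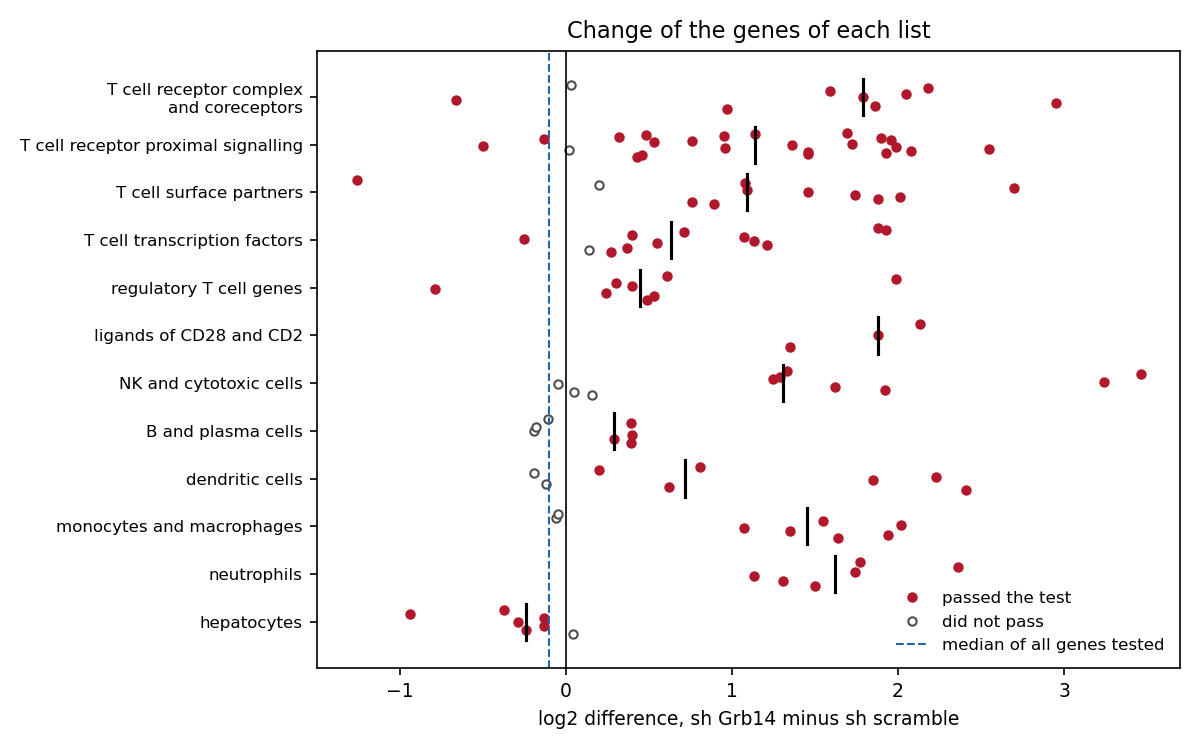
Log2 difference, sh Grb14 minus sh scramble, of each gene in 12 lists, with the genes that passed the test filled, those that did not open, the median of each list as a black bar and the median of all genes as a blue dashed line. The medians run from −0.24 for hepatocytes to 1.88 for the ligands of CD28 and CD2, with the T cell receptor complex and coreceptors at 1.79.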

How the data were processed

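Per the labels' protocols, biotinylated cDNA was made from 100 ng of Trizol-extracted liver RNA for an Affymetrix array. The table the authors deposited gives log2 expression for 35556 probe sets on 12 arrays. The submitters' processing notes name RMA and Partek but not their roles, and other steps are not given in the sources used here. Array medians over all 35556 probe sets lay between 7.06 and 7.17. No scan date or batch is given in the labels, so a batch that followed the groups cannot be told apart from them. The number of arrays limits the precision.

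Probe sets with 1 symbol in the platform annotation were kept (21789; 1621 had several symbols and 12146 none listed), and for 999 genes with several probe sets the one with the highest mean was used. The 19938 genes were fitted with limma 3.58.1 in R 4.3.3 (lmFit, eBayes with trend; group alone; no intensity filter), and p was adjusted by Benjamini-Hochberg over all of them. The fitting was tested on simulated data. Alternatives were other array scaling, variance models, probe set choices, an intensity filter and leaving out each mouse. The 9 genes are all named, with the 3 largest changes past the test in each other list. Genes beyond that, mostly those that went against their list or have a known role beside the receptor, were named after their values were seen. The set and the lists were chosen with earlier results of these data known.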

Additional observations from a re-analysis of the deposited data

Results flagged for a closer look

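Among 106 sets of 6 values checked, 3 held a liver whose distance to its nearest neighbour was over 0.625 of the range of its group; chance gives about 1 in 20. None was in the 9 genes of the receptor complex. Ikzf4 stood at 7.37 in sh Grb14 liver 5, above the next value of 6.98. Tbx21 stood at 6.81 in sh scramble liver 6, below the next value of 7.13. Klrk1 stood at 6.08 in sh scramble liver 5, above the next value of 5.82.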

How the results depend on the processing

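The 8 genes that passed kept their direction and passed under every one of the 19 alternatives in which they were fitted. Foxp3, whose small difference changed sign, passed under none (−0.11 to 0.07, adjusted p 0.176 to 0.985). Alternatives of probe set choice reused the same values, as each of the 9 genes had 1 probe set. The fit without trend and the intensity filter left the change of each fitted gene as it was. The rises ran from 0.83 to 1.02 for Cd3d and from 2.81 to 3.01 for Cd3g, and the change of Cd4 from −0.80 to −0.64. Centring used each array's median over the 19938 genes tested, not its median over all 35556 probe sets. It moved the median of all genes by over 0.1, from −0.10 to −0.25. The higher share of all calls went from 39.5% to 23%, with 12943 genes lower. Leaving out genes below the median of mean level gave 7869 calls, against 13012 with all genes, and left 4 of the 9 genes (4 higher, 0 lower, 4 with groups that did not overlap), since the other 5 were no longer fitted. Leaving out single mice gave 11877 to 13497 calls, 7 genes higher, 1 lower and 8 with groups that did not overlap each time. It gave shifts of 2.41 to 2.47 for Cd8a minus Cd4, 0.22 to 0.30 for Cd8b1 minus Cd8a, 0.64 to 0.73 for Foxp3 minus Cd4, 0.24 to 0.39 for Cd28 minus Cd3e and −0.36 to −0.19 for Cd2 minus Cd3e. A turn of sign came with a changed call in 4 genes: Csk (−0.12) and Alb (−0.11) passed as lower with centred arrays, and with quantile normalisation Apob (0.07) passed as higher and Cps1 (0.01) did not pass; the cause was not tested. Of 118 single genes followed, 94 kept their call under every alternative in which they were fitted. Detection was not called, so low levels limit Cd3d, Trat1, Klre1, Klrb1c and Catsper1, among other genes. In sh scramble livers the means of Cxcr2 (5.22), Ms4a1 (5.63) and Retnlg (5.73) lay near or below the lower quartiles (5.69 to 5.83). So did those of Klrk1 (5.8), Il2ra (5.82) and Jchain (5.83), and changes from such levels can be understated. No paired analysis was possible because the labels give no replicate number shared by the groups.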
